A study of Mus musculus with 6 samples.

Results

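The genes described here are 38 genes of neuropeptide signalling: 22 neuropeptide precursors (opioid precursors left out), 7 granins and granin-like proteins, 5 peptide-processing enzymes and 4 other secreted or peptide-binding proteins. They were taken by symbol from a given list, under a rule that uses no measured value, out of 32531 named genes in the count files, and all 38 were found. The counts come from thalamus of adult mice without treatment, all of the TRAP line NIDA030 (Cbln1-EGFP/Rpl10a), where TRAP stands for translating ribosome affinity purification. In TRAP the ribosomal protein Rpl10a carries a green fluorescent tag in chosen cells, and antibodies to the tag then pull the tagged polysomes out of homogenised tissue. There were 2 groups of 3 libraries: IP, the immunopurified polysome RNA, and Input, the libraries the labels call input, although they give ribosome-bound RNA as the molecule of both. All 6 libraries share the transgenic line, which is named for Cbln1; which cells carry the tag was taken from that name alone. Nothing in the labels says that the replicate numbers stand for separate animals or pools, so p-values measure the spread between these samples, which may be technical.

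Neuropeptides are made as larger precursors that enter the secretory pathway and are packed into dense-core vesicles. Granins such as chromogranins help form these vesicles, prohormone convertases cut the precursors at pairs of basic residues, carboxypeptidase E trims the cut ends, and an amidating enzyme finishes many peptides. The vesicles are released by trains of action potentials, and the peptides act on G-protein-coupled receptors, often at some distance. Most thalamic relay neurons signal with glutamate. Many peptides measured here are better known from inhibitory interneurons, the habenula or the hypothalamus, which border the thalamus.

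Depth ran from 23929070 assigned counts in Input replicate 1 to 57385828 in IP replicate 1. Levels are given in CPM (counts scaled to a common library size) after edgeR's TMM normalization (trimmed mean of M-values). The level of Cbln1 was 1429 ± 67.8 CPM in the IP libraries, against 79.8 ± 9.64 CPM in Input (mean ± SD, n = 3 per group). Markers of glutamatergic thalamic neurons summed to 5252 to 5839 CPM in IP and 3821 to 4454 CPM in Input, and of these 12 markers 6 were higher, 3 lower (Rora, Prox1 and Ntng1) and 3 not called. All 12 astrocyte markers and all 13 oligodendrocyte-lineage markers were lower in IP, with median log2 fold changes of -3.06 and -3.53. Over all 16898 genes tested, 23.3% were higher and 24.3% lower, and the median log2 fold change was -0.07. Scaling by upper quartile or library totals moved this median to -0.25 or -0.31.

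Peptide genes went both ways in IP, with more called lower than higher when all libraries were used. Among the 5 enzymes that process peptides 3 were higher, though the calls of Pcsk2 and Cpe depended on the scaling. Of the 38 genes 33 had enough counts to be tested, 8 were higher and 11 lower in IP, and 14 did not pass (edgeR's quasi-likelihood test, Benjamini-Hochberg adjusted p under 0.05 over all genes tested). These were 24.2% higher and 33.3% lower, where 23.3% of all genes tested were higher and 24.3% lower, so the share of higher genes was near the background. The median log2 fold change of the 33 genes was -0.40. IP and Input libraries did not overlap for 22 of them, 66.7% against 61.6% of all genes tested. Without Input replicate 1 there were 7 higher and 7 lower, and without Input replicate 3 also 7 higher and 7 lower. The excess of lower genes was thus gone without either library. A test against a 1.5-fold change gave 6 higher and 7 lower. In bulk RNA of this kind, fewer cells of a type and less RNA per cell cannot be told apart.

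**Figure D1:**
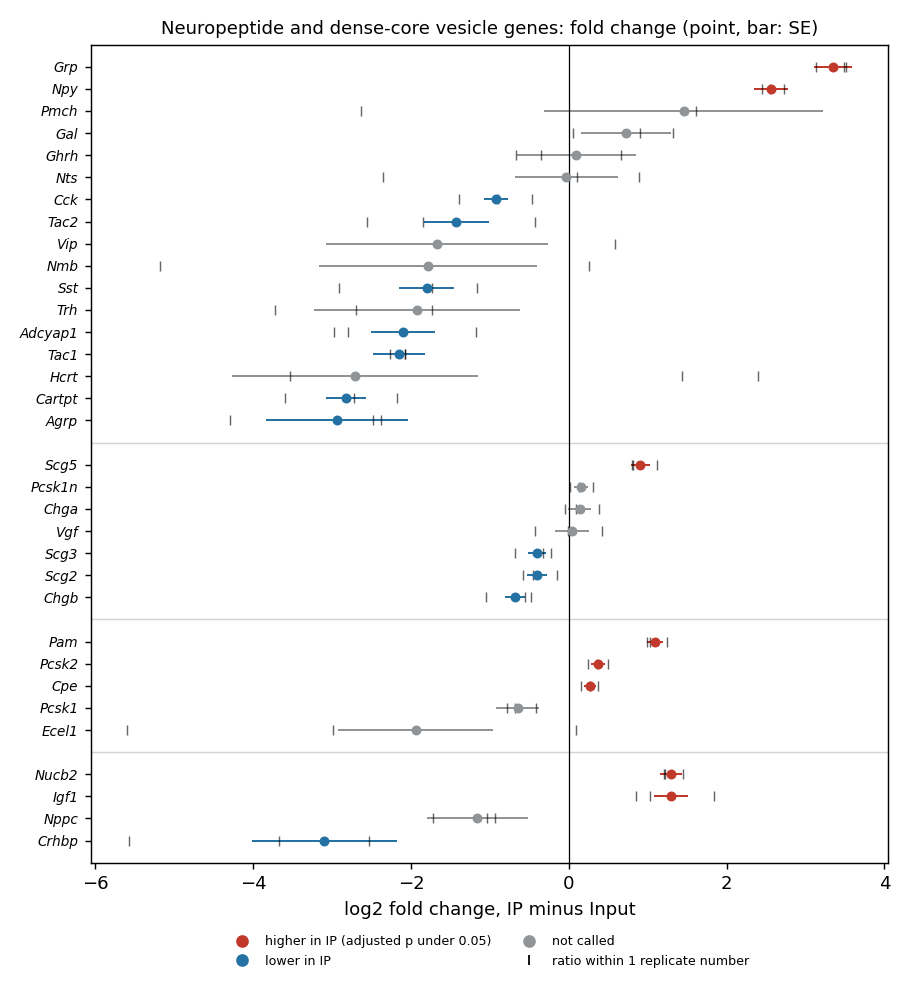
Log2 fold change, IP minus Input, of the 33 genes tested (point, with SE as a bar), coloured by call, with black ticks for the ratio within each replicate number; ratios with a 0 in either library have no tick. The groups from top to bottom are precursors, granins, processing enzymes and other secreted proteins; Grp and Npy lie farthest to the right, and the wide bars belong to genes of few counts or of unequal replicates.

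The promoters of several of these genes carry the cyclic AMP response element, the palindrome bound by CREB-family factors, for which the somatostatin promoter is a textbook example. RefSeq promoter windows (GRCm38.p6, 250 bases before to 50 after the start) were matched by symbol for 33 of the 38 genes. Agrp, Cpe, Crh, Grp and Vgf had no window, so the counts below do not cover them. Of these, Grp and Cpe were higher in IP and Agrp was lower. The letters TGACGTCA, which read the same on both strands, were in 5 of these 33 genes (15.2%) and in 2.03% of 27025 genes with a window. The core CGTCA, searched on both strands and contained in the full palindrome, was in 20 of them (60.6%) and in 23.0% of all. The stretches that hold the palindrome are shown here because all 5 of those genes had IP libraries below every Input library. The same held for 5691 of all 16898 genes tested. The palindrome is in capitals. The first base of the palindrome lies 48 bases before the RefSeq start in Sst, 68 in Scg2, 72 in Chgb, 78 in Pcsk1 and 112 in Cartpt.
Sst (chr16:23890874-23890903, minus strand): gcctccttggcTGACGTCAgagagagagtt
Scg2 (chr1:79440076-79440105, minus strand): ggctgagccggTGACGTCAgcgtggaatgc
Chgb (chr2:132781559-132781588, plus strand): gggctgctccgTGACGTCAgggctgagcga
Pcsk1 (chr13:75089768-75089797, plus strand): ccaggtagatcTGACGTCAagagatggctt
Cartpt (chr13:99900777-99900806, minus strand): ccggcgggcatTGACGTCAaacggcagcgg

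Of these 5 genes, Sst, Scg2, Chgb and Cartpt were lower in IP and Pcsk1 did not pass, and none was higher. Of 11586 genes that were tested and had a window, 25.5% were higher and 22.4% lower. Among them, 399 held the palindrome, of which 31.1% were higher and 17.3% lower. The 29 peptide genes that were tested and had a window were 20.7% higher and 34.5% lower. Of these, 18 held the core CGTCA, of which 2 were higher (Scg5 and Pcsk2) and 9 lower. The other 11 had 4 higher and 1 lower. Of the 11586 genes with a window, 3904 held CGTCA, of which 29.7% were higher and 18.0% lower. The part of these letters in the calls was not tested. Npy, which rose, is shown for contrast from 120 to 31 bases before the start, and neither this stretch nor its whole window holds TGACGTCA or CGTCA on either strand. A match or its absence describes these letters in this window and no more.
Npy (chr6:49822590-49822679, plus strand): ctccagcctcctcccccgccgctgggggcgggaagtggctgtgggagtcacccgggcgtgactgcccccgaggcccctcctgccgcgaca

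Among the precursors, Grp and Npy were higher in IP, 7 were lower and 8 did not pass. Of the 17 tested these were 11.8% higher and 41.2% lower, against 23.3% and 24.3% of all genes tested. Grp, the precursor of gastrin-releasing peptide, a bombesin-like peptide, gave 1.61, 2.52 and 2.20 CPM across the Input libraries (here and below in the order of replicates 1, 2 and 3) against 18.3, 22.1 and 24.7 CPM across the IP libraries. Every IP library stood far above every Input library, a 10.2-fold difference (log2 fold change 3.34, SE 0.24, adjusted p = 9.76e-06). Npy, the precursor of neuropeptide Y (chromosome 6, 49822710 to 49829507, mm10), had 2.74, 3.66 and 2.77 CPM in Input and 16.0, 20.0 and 18.3 CPM in IP, with no overlap. It was 5.90-fold higher (log2 fold change 2.56, SE 0.22, adjusted p = 2.50e-05). Leaving out any 1 library or replicate number kept Grp between 3.20 and 3.50 and Npy between 2.49 and 2.72 on the log2 scale.

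The 7 precursors that fell were Cartpt, Tac1, Adcyap1, Sst, Tac2, Cck and Agrp. Cartpt, the precursor of the CART peptides (chromosome 13, 99898489 to 99901091), had 60.2, 93.4 and 58.5 CPM in Input and 13.3, 7.74 and 8.90 CPM in IP. The groups lay far apart, and Cartpt was 7.08-fold lower (log2 fold change -2.82, SE 0.25, adjusted p = 3.32e-05). Tac1, the precursor of substance P and neurokinin A, had 18.9, 9.86 and 11.4 CPM in Input and 3.94, 2.33 and 2.71 CPM in IP, 4.45-fold lower (adjusted p = 6.61e-04). Its log2 ratios within the 3 replicate numbers were close to each other, at -2.26, -2.08 and -2.07. Adcyap1, the precursor of the pituitary adenylate cyclase-activating peptide PACAP, had 21.4, 21.9 and 24.3 CPM in Input and 9.52, 3.14 and 3.08 CPM in IP. IP replicate 1 was the highest of its group, and the log2 fold change went from -2.10 (SE 0.41, adjusted p = 0.00270) to -2.85 without that library.

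Sst, the precursor of somatostatin and the gene with the best known palindrome above, had 32.9, 27.6 and 23.8 CPM in Input and 9.88, 3.68 and 10.6 CPM in IP. It was 3.49-fold lower (log2 fold change -1.80, SE 0.35, adjusted p = 0.00258), and IP replicate 2 was the lowest library. Tac2, the neurokinin B precursor, had 22.4, 24.99 and 34.3 CPM in Input and 16.7, 4.25 and 9.51 CPM in IP. The IP libraries spread widely below the Input ones, and the call (log2 fold change -1.43, SE 0.41, adjusted p = 0.0177) was lost without IP replicate 3 (adjusted p = 0.0553) and without Input replicate 3 (adjusted p = 0.0654). Cck, the precursor of cholecystokinin, had the highest level per kilobase of the precursors in both groups, and its libraries had 120, 169 and 143 CPM in Input and 86.6, 64.4 and 76.7 CPM in IP. It fell 1.90-fold (log2 fold change -0.92, SE 0.15, adjusted p = 9.58e-04), a smaller change than in the other precursors that fell. Agrp, the agouti-related peptide of hypothalamic feeding neurons, had 19 to 32 counts in Input and 2 to 5 in IP (log2 fold change -2.94, SE 0.90, adjusted p = 0.0230). Its call was lost without any 1 Input library (adjusted p of 0.0637 to 0.0996), and 114 of its exonic bases are shared with Ctcf or Gm5914.

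The summed level of the 22 precursors was 135 to 206 CPM in IP and 307 to 361 CPM in Input. Markers of 4 other groups of neurons were also more often called lower than higher. Over all genes tested, 24.3% were lower and 23.3% higher. Of GABAergic and reticular nucleus markers 10 of 13 tested were lower and none higher (summed level 130 to 143 CPM in IP, 728 to 979 CPM in Input). Of habenular markers 11 of 12 were lower (199 to 253 and 379 to 503 CPM). Of hypothalamic and monoaminergic markers 6 of 11 tested were lower and 1 higher (78.4 to 113 and 162 to 214 CPM), with Nr5a1 and Slc6a4 at 0 in all IP libraries. Of cortical and hippocampal markers 4 of 9 tested were lower and 2 higher (164 to 181 and 219 to 232 CPM). The part of these cells in the fall of the precursors was not tested.

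**Figure D2:**
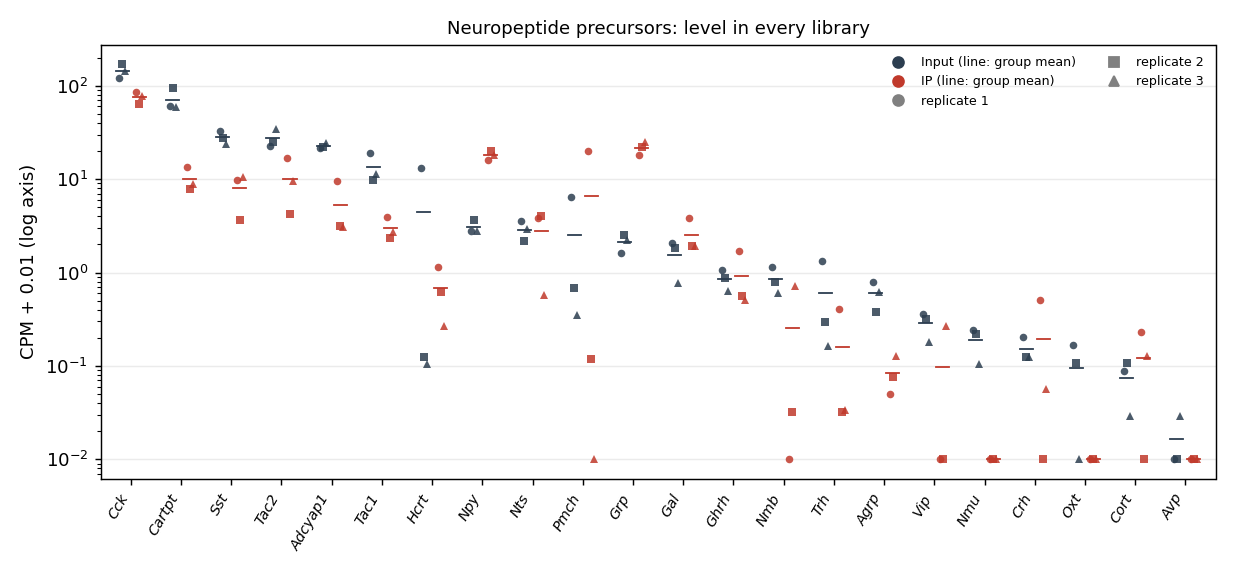
CPM + 0.01 on a log axis of the 22 precursors in every library, ordered by mean Input level, with Input in dark blue, IP in red, 1 marker shape per replicate number and a line at each group mean. Grp and Npy are the precursors with IP clearly above Input, and Pmch and Hcrt show 1 replicate number far above the other two.

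Counts of lateral hypothalamic peptides lay mostly in replicate 1. Pmch, the melanin-concentrating hormone precursor, gave read counts of 166, 35 and 18 for Input against 993, 5 and 0 for IP, or 19.9, 0.109 and 0 CPM in IP. Nearly all of its IP counts lay in replicate 1, and it was not called (log2 fold change 1.45, SE 1.77, adjusted p = 0.529). Without IP replicate 1 it turned to -5.39 and was called lower (adjusted p = 0.0237). Of its 749 exonic bases 435 are shared with Parpbp on the opposite strand. Hcrt, the hypocretin (orexin) precursor, gave read counts of 336, 6 and 5 for Input against 57, 28 and 11 for IP. Input replicate 1 again stood apart, and the log2 fold change of -2.71 (SE 1.56, adjusted p = 0.183) turned to 2.64 without it (adjusted p = 0.132). Trh, the thyrotropin-releasing hormone precursor, gave read counts of 34, 15 and 8 for Input against 20, 1 and 1 for IP, was not called (adjusted p = 0.255), and was called lower without IP replicate 1 (log2 fold change -4.49, adjusted p = 0.0254).

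Replicate 1 was the highest library of its group for 12 precursors in IP and 14 in Input. In IP these were 12 of 19 precursors with counts (63.2%), against 6 of the 16 other peptide genes (37.5%) and 35.0% of all genes tested. In Input they were 14 of 22 (63.6%), against 9 of the 16 others (56.2%) and 34.6% of all genes tested, so the Input pattern was shared by the other peptide genes. The precursors include 5 genes with too few counts to test, and Input replicate 1 had the fewest assigned counts. These shares are thus not matched for level or depth. Summed hypothalamic and monoaminergic markers, a list that holds no peptide, were 113, 78.4 and 89.2 CPM in IP replicates 1 to 3 and 194, 162 and 214 CPM in Input. The sum was highest in replicate 1 in IP but not in Input. Of its members, the hypothalamic transcription factor genes Nkx2-1 (3.22, 0.436 and 0.706 CPM in IP, 3.84, 0.732 and 1.99 CPM in Input) and Sim1 (2.26, 0.283 and 0.471 CPM in IP, 3.76, 2.35 and 2.18 CPM in Input) were highest in replicate 1 of both groups. Hdc and Isl1 were highest there in Input, with 6.70, 2.23 and 3.14 CPM and 3.41, 1.81 and 1.76 CPM. In IP they were not, with 0.700, 0.785 and 0.400 CPM and 0, 0.0218 and 0.0235 CPM. Other members differed: Th, Ddc, Slc6a3 and Lhx9 were highest in replicate 1 in IP but in replicate 3 in Input. Lhx9, for example, had 36.6, 48.6 and 51.4 CPM in Input. Tph2 was highest in replicate 3 of both groups (0.0800, 0.676 and 1.365 CPM in IP). Lmx1b was highest in replicate 3 in IP (0, 0.0436 and 2.635 CPM) but in replicate 1 in Input. Otp and Fezf1, at few counts, were highest in replicate 1 of both groups. Nr5a1 and Slc6a4, at 0 in IP, were highest there in Input, also at few counts. Ependymal and choroid plexus markers went the other way, with 5.78, 49.5 and 44.6 CPM in IP and 32.4, 534 and 596 CPM in Input, lowest in replicate 1 of both groups, with most of the sum in replicates 2 and 3 from Ttr. The part of these cells in the replicate difference was not tested. Replicate number and sequencing lane coincide in the labels and cannot be told apart.

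The remaining precursors were at low levels and did not pass. Gal, the galanin precursor, had 3.80, 1.90 and 1.91 CPM in IP and 2.04, 1.83 and 0.765 CPM in Input (log2 fold change 0.72, adjusted p = 0.327). Nts, the neurotensin precursor, had 3.82, 4.01 and 0.565 CPM in IP and 3.56, 2.16 and 2.89 CPM in Input, so that IP replicate 3 alone lay below Input; the log2 fold change was -0.031, and 0.47 without that library. Ghrh, the growth hormone-releasing hormone precursor, had means of 0.907 and 0.852 CPM in IP and Input (log2 fold change 0.097, and -0.69 without IP replicate 1 and -0.08 without Input replicate 3). Nmb, the neuromedin B precursor, had 0, 1 and 30 counts in IP and 29, 41 and 31 in Input, and was called lower without IP replicate 3 (log2 fold change -5.96, adjusted p = 0.00576). Its IP reads were thus in 1 library, and 163 of its exonic bases are shared with Sec11a. Vip, the vasoactive intestinal peptide precursor and an interneuron marker, had 0, 0 and 11 counts in IP and 9, 16 and 9 in Input, and was likewise called lower without IP replicate 3 (log2 fold change -6.64, adjusted p = 0.0146).

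Another 5 precursors had too few counts to test. Avp and Oxt, the vasopressin and oxytocin precursors, had 1 and 9 counts in all Input libraries together and 0 in IP. Nmu, the neuromedin U precursor, had 22 counts in Input and 0 in IP, at least 7.82-fold lower when IP is set at a floor of 3 counts over the group. For Oxt the same bound was at least 3.20-fold lower, and for Avp both groups lay under the floor. Crh, the corticotropin-releasing hormone precursor, had 25, 0 and 2 counts in IP and 5, 6 and 6 in Input. Cort, the cortistatin precursor, had 11, 0 and 5 counts in IP and 2, 5 and 1 in Input. For Crh and Cort, too, most IP counts lay in replicate 1.

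Granins, the matrix proteins of dense-core vesicles, changed by less than 2-fold and in both directions. Of 7 tested, Scg5 rose, Chgb, Scg2 and Scg3 fell, and Chga, Pcsk1n and Vgf did not pass. These were 14.3% higher and 42.9% lower, against 23.3% and 24.3% of all genes tested. Scg5, which encodes 7B2, the chaperone of the convertase PCSK2, had 49.5, 37.6 and 47.1 CPM in Input and 86.4, 81.9 and 82.8 CPM in IP. The IP libraries were tightly grouped above all Input libraries, 1.87-fold higher (log2 fold change 0.90, SE 0.12, adjusted p = 3.30e-04). Chgb, chromogranin B, had 260, 253 and 238 CPM in Input and 125, 181 and 162 CPM in IP, 1.60-fold lower (log2 fold change -0.68, SE 0.13, adjusted p = 0.00226).

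Scg2, the secretogranin II gene, had 193, 136 and 154 CPM in Input and 129, 123 and 113 CPM in IP, with Input replicate 2 close above the IP libraries (log2 fold change -0.40, SE 0.13, adjusted p = 0.0286). Scg3, a granin that sorts chromogranin A to vesicles, had 81.7, 79.3 and 87.5 CPM in Input and 70.2, 63.3 and 54.4 CPM in IP (log2 fold change -0.40, SE 0.11, adjusted p = 0.0166). Both calls were narrow. Scg2 lost its call without IP replicate 2 or 3 (adjusted p = 0.0502 and 0.101) and without Input replicate 1 or 3 (0.124 and 0.0608). Scg3 lost its call without Input replicate 1 or 3 (adjusted p = 0.0536 and 0.0841). Without either of these Input libraries, 1 granin was lower in place of 3, and no granin was lower in a test against a 1.5-fold change.

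Chga, chromogranin A, had 45.8 ± 4.99 CPM in IP, against 41.6 ± 6.60 CPM in Input (mean ± SD, n = 3 per group, adjusted p = 0.450). Vgf, a granin-like precursor induced by nerve growth factor, had 21.01, 25.9 and 13.9 CPM in IP and 21.2, 19.4 and 18.8 CPM in Input, so the IP libraries lay on both sides of the Input ones (log2 fold change 0.038, adjusted p = 0.901, and -0.17 without IP replicate 2). Pcsk1n, which encodes proSAAS, an inhibitor of the convertase PCSK1, had 155, 178 and 168 CPM in IP and 152, 144 and 153 CPM in Input. It did not pass (log2 fold change 0.15, SE 0.09, adjusted p = 0.169), and was called without IP replicate 1 (0.22, adjusted p = 0.0364). The log2 fold changes of Chga, Vgf and Pcsk1n turned negative under upper-quartile and library-total scaling. Summed over the 7 genes, granins came to 634 to 703 CPM in IP and 707 to 806 CPM in Input.

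Processing enzymes were higher in IP for 3 of 5, with no gene called lower. These were 60% higher, against 23.3% of all genes tested, of which 24.3% were lower. Pam, the peptidylglycine monooxygenase that amidates peptides (chromosome 1, 97795114 to 98095646), had 62.9, 52.9 and 58.3 CPM in Input and 128, 125 and 117 CPM in IP. The groups did not overlap, and Pam was 2.13-fold higher (log2 fold change 1.09, SE 0.10, adjusted p = 3.63e-05). Pcsk2, the prohormone convertase whose chaperone is encoded by Scg5, had 125, 132 and 134 CPM in Input and 160, 187 and 159 CPM in IP, 1.29-fold higher (log2 fold change 0.37, SE 0.09, adjusted p = 0.00927). Cpe, carboxypeptidase E, had 285, 295 and 298 CPM in Input and 343, 381 and 332 CPM in IP, 1.20-fold higher (log2 fold change 0.27, SE 0.08, adjusted p = 0.0213). For both genes every IP library lay above every Input library, but by a small margin.

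The calls of Pcsk2 and Cpe depended on the scaling. Under upper-quartile scaling and library totals neither passed (adjusted p = 0.109 and 0.345 for Pcsk2, 0.381 and 0.812 for Cpe), while Pam passed under both. Cpe also lost its call without any 1 Input library (adjusted p of 0.0623 to 0.0804). Antisense transcripts Pcsk2os1 and Pcsk2os2 share 359 exonic bases with Pcsk2, and the strand setting of the counting is not given in the sources used here. Astrocytes express Cpe too, and their markers summed to 870 to 945 CPM in IP and 2570 to 2637 CPM in Input; their part in the level of Cpe was not tested.

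Pcsk1, the convertase that starts the cleavage of many precursors and the enzyme with the palindrome shown above, did not pass. It had 5.45, 6.58 and 8.11 CPM in Input and 4.08, 4.10 and 4.71 CPM in IP, and its log2 fold change of -0.65 (SE 0.27, adjusted p = 0.0765) was not called although the groups did not overlap. It was called lower under upper-quartile scaling (adjusted p = 0.0318), library totals (0.0277) and DESeq2 (0.0256). Ecel1, a neuronal endopeptidase of the endothelin-converting enzyme family, gave read counts of 61, 55 and 119 for Input against 15, 52 and 2 for IP. IP replicate 2 lay among the Input values, and the gene was called lower without it (log2 fold change -3.40, adjusted p = 0.0157, against 0.133 with it). With TMM scaling the 5 enzymes summed to 612 to 698 CPM in IP and 481 to 501 CPM in Input, the reverse order of the precursors. Most of this sum came from Cpe and Pcsk2, whose calls depended on the scaling.

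Among the other secreted proteins Nucb2 and Igf1 rose and Crhbp fell. Of 4 tested these were 50% higher and 25% lower, against 23.3% and 24.3% of all genes tested. Nucb2, the precursor of nesfatin-1, had 20.0, 17.3 and 17.7 CPM in Input and 46.6, 40 and 48.4 CPM in IP, 2.46-fold higher (log2 fold change 1.30, SE 0.13, adjusted p = 7.03e-05). Igf1, the insulin-like growth factor 1 gene (chromosome 10, 87858265 to 87937042), had 34.0, 32.7 and 37.7 CPM in Input and 121, 66.8 and 68.4 CPM in IP. Every IP library exceeded every Input library, and IP replicate 1 was the highest (log2 fold change 1.30, SE 0.22, adjusted p = 0.00123). Microglia and mural cells also express Igf1. Over all genes tested, 24.3% were lower in IP and 23.3% higher. Of 10 microglial markers 7 were lower and none higher, summing to 4.403 to 8.33 CPM in IP and 44.7 to 56.7 CPM in Input, and of 10 endothelial and mural markers 7 were lower and 1 higher, summing to 9.63 to 12.7 and 28.5 to 37.1 CPM, with Cldn5 at 0 in IP. The marker that was higher was the mural gene Pdgfrb (7.14 CPM in IP, 3.63 CPM in Input, log2 fold change 0.98, adjusted p = 0.0147), and the part of these cells in the level of Igf1 was not tested.

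Crhbp, which binds and neutralises corticotropin-releasing hormone, gave read counts of 151, 108 and 204 for Input against 51, 2 and 13 for IP, 8.56-fold lower (log2 fold change -3.10, SE 0.92, adjusted p = 0.0206). The IP libraries differed widely among themselves. The log2 fold change was -4.48 without IP replicate 1, and the call was lost without IP replicate 3 (adjusted p = 0.0531), Input replicate 1 (0.0957) or Input replicate 3 (0.0555). Nppc, the C-type natriuretic peptide precursor, had 1.25, 1.58 and 1.55 CPM in Input and 0.380, 0.828 and 0.753 CPM in IP, without overlap but also without a call (log2 fold change -1.16, SE 0.64, adjusted p = 0.167).

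**Figure D3:**
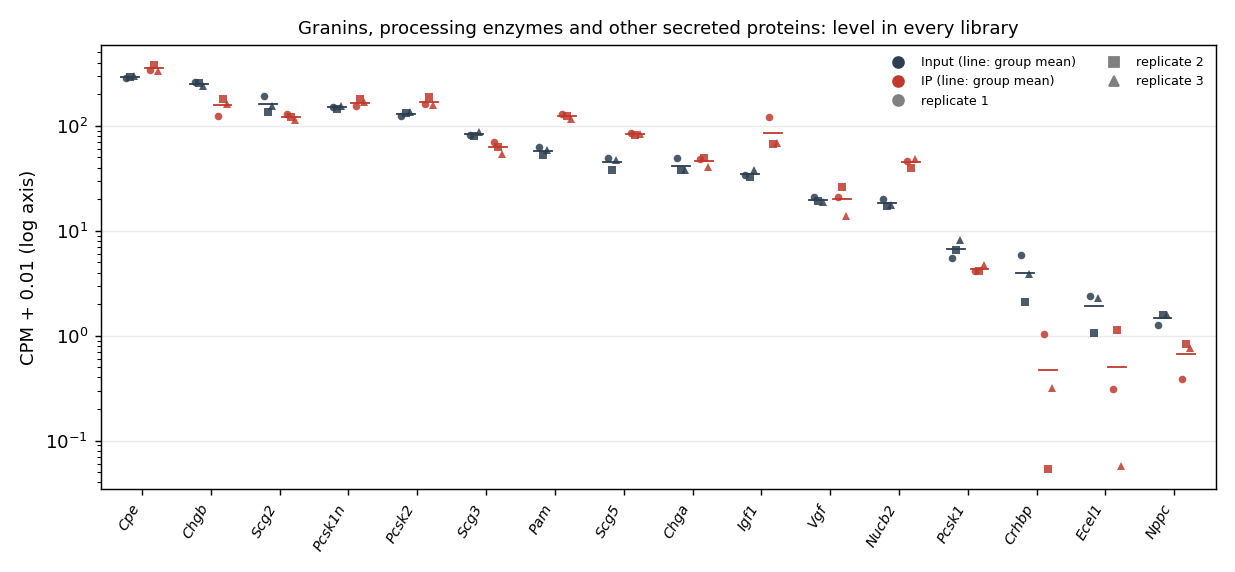
CPM + 0.01 on a log axis of the granins, processing enzymes and other secreted proteins in every library, ordered by mean Input level, with Input in dark blue, IP in red, 1 marker shape per replicate number and a line at each group mean. Pam, Scg5, Igf1 and Nucb2 show IP above Input; Chgb shows the reverse; Crhbp and Ecel1 spread widely in IP.

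Levels of different genes were compared as CPM per kilobase of merged exons (GENCODE M21), which need not be the gene models the authors counted on. In Input the highest were Cpe (112 ± 2.71), Cck (110 ± 19.1) and Chgb (91.4 ± 4.11 CPM per kilobase, SD, n = 3 each), of which Cpe and Cck did not differ beyond their spread. Pcsk1n (68.3 ± 2.30) and Scg2 (63.9 ± 11.5) came next, again within their spread, followed by Cartpt (55.4 ± 15.4) and Sst (39.0 ± 6.37). In IP Cpe was again highest (135 ± 9.90), followed by Pcsk1n (76.0 ± 5.42). Cck (58.2 ± 8.54), Chgb (57.0 ± 10.4), Scg5 (53.3 ± 1.5) and Scg2 (48.3 ± 3.36) followed with overlapping spreads. Npy moved from rank 17 of 38 in Input (5.40 ± 0.918) to rank 7 in IP (32.0 ± 3.55), and Grp from rank 25 (1.43 ± 0.315) to rank 12 (14.7 ± 2.19). Cartpt went the other way, from rank 6 to rank 17 (7.81 ± 2.30 in IP). On this scale Npy in IP lay below Cck, Pcsk1n, Chgb, Scg5 and Scg2.

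The machinery that builds, docks and releases dense-core vesicles was higher in IP more often than lower. Of 24 genes on a list of such proteins 12 were higher, 4 lower and 8 not called (median log2 fold change 0.30). These were 50% higher and 16.7% lower, against 23.3% and 24.3% of all genes tested. The largest increases were in Rab27b, a GTPase of secretory vesicle docking (73.1 ± 10.9 CPM in IP against 36.6 ± 4.80 CPM in Input, log2 fold change 1.0, adjusted p = 5.29e-04), and Rab3a, a GTPase of regulated release (789 ± 58.6 and 398 ± 12.98 CPM, log2 fold change 0.99, adjusted p = 1.71e-05). Cadps2, a priming factor for vesicle release, fell most (22.7 ± 10.2 CPM in IP, 86.0 ± 11.1 CPM in Input, log2 fold change -1.93, adjusted p = 8.11e-04), followed by Baiap3, a protein of vesicle trafficking (log2 fold change -1.78, adjusted p = 2.52e-04). Cadps, the close relative of Cadps2, was higher (660 ± 60.3 and 390 ± 15.5 CPM, log2 fold change 0.76, adjusted p = 1.17e-04), so these paralogues went in opposite directions; Cadps was named after its value was seen. Under upper-quartile scaling the list had 10 higher and 6 lower, and under library totals 9 and 7.

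Other convertases and peptidases moved in both directions. Of 25 tested, 5 were higher and 5 lower (20.0% each, median log2 fold change -0.092). Over all genes tested the shares were 23.3% higher and 24.3% lower. Pcsk6, a convertase of growth factor precursors, rose (Input 5.71 ± 0.587 CPM, IP 20.8 ± 3.38 CPM, log2 fold change 1.87, adjusted p = 7.70e-05), and the neuropeptide-degrading neprilysin gene Mme rose from 27.2 ± 1.24 to 61.8 ± 8.003 CPM (log2 fold change 1.19, adjusted p = 9.23e-05). Cpd, a carboxypeptidase of the trans-Golgi network (log2 fold change -1.43, adjusted p = 1.13e-04), and the endothelin-converting enzyme gene Ece1 (-1.33, adjusted p = 0.00128) fell. The split was 3 higher and 8 lower under upper-quartile scaling, and 2 and 9 under library totals. It was 6 and 8 without IP replicate 3, 3 and 3 without Input replicate 2, 3 and 4 without Input replicate 3, 4 and 3 without replicate number 2, and 3 and 4 without replicate number 3.

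**Figure D4:**
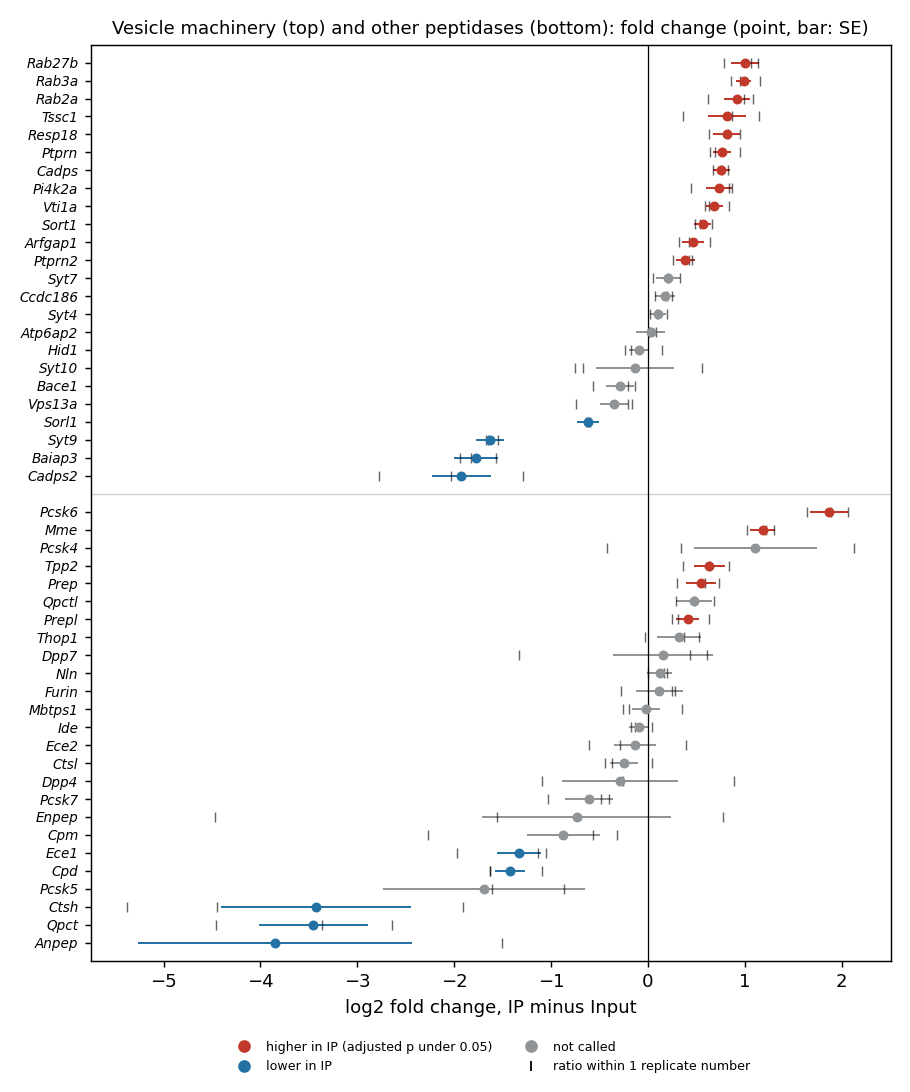
Log2 fold change, IP minus Input, of 24 genes of dense-core vesicle biogenesis, docking and release (upper block) and 25 other convertases and peptidases (lower block), as point and SE, with black ticks for the ratio within each replicate number. The upper block has 12 genes called higher and 4 called lower; the lower block has 5 of each.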

How the data were processed

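RNA-seq of 3 IP and 3 Input libraries was used. The deposited values are raw read counts per gene symbol. The submitters' processing notes name STAR 2.0.0e, HTSeq and the mm10 build. The HTSeq version, strand setting and annotation are not given in the sources used here. Lines that name no gene (53.2 to 59.8% of a file's total) were left out. Their make-up differed between the groups. Ambiguous reads were 1.32 to 1.58% in IP and 5.47 to 6.60% in Input. Reads without a unique position were 43.2 to 49.7% and 32.7 to 34.0%, and reads outside genes 8.44 to 9.39% and 14.75 to 15.9%. Groups and replicate numbers came from the sample titles. Of 32531 genes, 16898 passed filterByExpr (minimum count 10) and were fitted together in R 4.3.3 with edgeR 4.0.16 (TMM scaling, robust quasi-likelihood F-test, no replicate block); Benjamini-Hochberg adjustment covered all of them, with a threshold of 0.05. Standard errors were derived from the F statistic, and a group at 0 counts was bounded with 3 counts over the group. The method was tested on simulated data. Alternatives were upper-quartile and library-total scaling, DESeq2 1.42.0, no filter, a stricter filter (1 CPM in 3 libraries and 50 counts in all), a test against a 1.5-fold change, a replicate block and leaving out libraries.

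Every one of the 38 genes is accounted for; of the other lists, the 2 largest called changes in each direction with a mean of at least 5 CPM were named, and Cadps, Pth2, Insl5 and Gnrh1 in addition, after their values were seen. The rule for the 38 genes uses no measured value, but they and all other lists were put together with earlier results of these data known. Gene positions and exon lengths came from GENCODE M21, promoters from RefSeq (GRCm38.p6, the same build as mm10). Exons of 7 of the 38 genes share bases with another gene, and their reads may have been set aside or shared.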

Additional observations from a re-analysis of the deposited data

How the results depend on the processing

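Of the calls in the 38 genes, 8 higher and 11 lower, the count of higher genes lay between 6 and 9 in every alternative. The count of lower genes was 7 in a test against a 1.5-fold change and 7 to 14 when libraries or replicate numbers were left out. Over all genes, 3930 higher became 2458 under library totals and 1484 in the test against a 1.5-fold change, which left 2700 of 4100 lower. Among all calls, 48.9% were higher with TMM, against 36.7% with upper quartiles and 31.9% with library totals. Genes that were not called changed sign. Under upper-quartile scaling and library totals, the log2 fold change was -0.036 and -0.095 for Chga, -0.075 and -0.17 for Ghrh, -0.023 and -0.079 for Pcsk1n, and -0.14 and -0.20 for Vgf. Vgf was at -0.003 with DESeq2 and -0.002 under the stricter filter. With libraries left out, Ghrh ranged from -0.69 to 0.41, Hcrt from -3.31 to 2.64, Nts from -0.54 to 0.47, Pmch from -5.39 to 3.71 and Vgf from -0.18 to 0.26. The cause was not tested. Same-numbered IP and Input libraries also share a sequencing lane in the labels. Over all genes tested, the correlations of their deviations from the group means were 0.064, 0.039 and 0.012, each below 0.1. With so few libraries per group, these values cannot tell whether same-numbered libraries came from the same tissue. With the replicate number as a block, 8 of the 38 genes were higher and 10 lower, as Agrp lost its call, and Ghrh (-0.12), Hcrt (0.11), Pmch (-0.98) and Vgf (-0.005) changed sign without a call. Depth limits Avp, Oxt, Nmu, Crh and Cort.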

Other observations

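Peptide precursors beyond the 38 genes were mostly low or absent. Of 45 on a further list, 18 could be tested, of which 9 were lower and 1 higher (median log2 fold change -2.72). These were 50% lower and 5.56% higher, against 24.3% and 23.3% of all genes tested. Nxph1, a secreted neurexophilin that binds neurexins, rose (Input 43.0 ± 1.73 CPM, IP 209 ± 12.7 CPM, mean ± SD, n = 3 per group, log2 fold change 2.28, adjusted p = 4.69e-07). Igf2, a growth factor made by meninges and choroid plexus, fell from 44.9 ± 11.2 to 3.62 ± 1.75 CPM (log2 fold change -3.64, adjusted p = 4.31e-05), and Apln, the apelin precursor, from 31.7 ± 0.963 to 2.67 ± 1.495 CPM (log2 fold change -3.57, adjusted p = 6.14e-05). The number of precursors lower on this list was 14 without IP replicate 1, 5 without Input replicate 1, 4 without Input replicate 2 and 5 without replicate number 2.

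In all IP libraries 21 of these 45 genes had 0 counts. Pth2, the precursor of the tuberoinfundibular peptide made by neurons next to the parafascicular nucleus, had 126 counts in Input and was at least 44.8-fold lower in IP, with IP set at 3 counts over the group (adjusted p = 0.00235). Insl5 and Gnrh1 were not tested. Insl5, a relaxin-family peptide, had 92 Input counts in all and was at least 32.7-fold lower. By Input replicate these were 5, 34 and 53 counts (0.196, 0.655 and 1.01 CPM). Gnrh1, the gonadotropin-releasing hormone precursor, had 73 Input counts in all and was at least 26.0-fold lower. By Input replicate these were 27, 37 and 9 counts (1.06, 0.712 and 0.172 CPM). Both bounds pool the Input libraries, which were uneven for these genes, and leave out that spread. Pth2, Insl5 and Gnrh1 were chosen after their values were seen.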
